A study of Mus musculus with 9 samples.

Results

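The genes studied here encode the mitochondrial oxidation of fatty acids in proximal tubular epithelia. They were chosen by gene symbol, as 33 named enzymes, carriers and partner proteins of the pathway, and no measured value enters the rule. The deposited table lists 24421 genes. All 33 members were found in it, and all 33 were among the 15583 genes whose level was high enough to be tested. Poly(A) RNA was sequenced from tdTomato+ cells that were sorted from the kidney cortex of 9 mice, 3 in each of 3 groups, with 1 library per mouse. All mice had a C57BL/6 strain label. They carried CreERT2 in the Slc34a1 locus (SLC34a1GCE) and the R26tdTomato reporter, and were given 5 injections of tamoxifen at 3 mg per mouse from the age of 8 weeks. The label therefore marks cells in which Slc34a1, a phosphate transporter gene of the proximal tubule, was active at that time. The *db/m* mice were heterozygous for the leptin receptor mutation Lepr db and non-diabetic. The *db/db* mice were homozygous for it, obese and diabetic. The *db/db*-dapa mice had the same genotype and received 1.5 mg/kg of dapagliflozin, an inhibitor of the glucose transporter SGLT2, in drinking water each day for 8 weeks. A *db/m* group given dapagliflozin was not analysed here.

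Proximal tubular cells reabsorb most of the filtered solutes and cover the energy for this largely by burning fatty acids. A fatty acid is first joined to coenzyme A, which is called activation. Its acyl group then crosses the inner mitochondrial membrane bound to carnitine, and is shortened in the matrix by a repeated spiral of dehydrogenation, hydration, a further dehydrogenation and thiolysis. The dehydrogenases hand their electrons to the respiratory chain through the electron transfer flavoprotein. Several of the enzymes come as variants for long, medium or short chains. The nuclear receptor PPARα is the best known activator of these genes.

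The counts summed to between 2733349 and 9033123 per mouse, with the smallest library in *db/db* replicate 1. The lowest count of any member in any mouse was 22, so that no member was near the limit of detection. Levels are given in CPM, the count of a gene relative to its scaled library size. The label was checked against markers. The summed level of 12 proximal tubule markers ranged from 12611 to 13619 CPM in *db/m*, from 14352 to 20365 in *db/db* and from 16686 to 21040 in *db/db*-dapa mice. Markers of other cells were present at lower levels. Over the 9 mice, the sum of 4 loop of Henle markers was between 313 and 1524 CPM. That of 4 distal convoluted tubule markers was between 293 and 891 CPM, and that of 5 collecting duct markers between 143 and 745 CPM. In sorted bulk samples, fewer cells of a type and less RNA per cell cannot be told apart.

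The promoters of 28 of the 33 members were matched in RefSeq's table for GRCm38.p6, and 3 of them are printed here. Acsm3 was the only member that passed the test, Pdk4 had the largest positive fold change, and Acadm encodes the central medium-chain enzyme. Each sequence is the part of the 250 bases before the gene's start that does not lie in an annotated exon, read 5′ to 3′ on the gene's strand. Capitals mark AGGTCA, the core hexamer of nuclear receptor elements, and CCAAT, the CCAAT box, read on either strand (TGACCT and ATTGG on the other).
Acsm3, chr7:119760673-119760922, + strand: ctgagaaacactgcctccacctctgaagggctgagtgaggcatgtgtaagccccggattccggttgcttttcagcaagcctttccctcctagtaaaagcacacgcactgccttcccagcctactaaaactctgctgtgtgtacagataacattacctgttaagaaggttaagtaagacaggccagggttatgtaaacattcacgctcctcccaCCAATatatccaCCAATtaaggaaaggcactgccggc
Pdk4, chr6:5496310-5496528, - strand: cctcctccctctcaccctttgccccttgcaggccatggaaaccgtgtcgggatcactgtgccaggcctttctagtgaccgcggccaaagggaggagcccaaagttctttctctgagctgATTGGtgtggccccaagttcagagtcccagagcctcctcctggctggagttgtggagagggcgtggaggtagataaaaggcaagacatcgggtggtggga
Acadm, chr3:153944644-153944893, - strand: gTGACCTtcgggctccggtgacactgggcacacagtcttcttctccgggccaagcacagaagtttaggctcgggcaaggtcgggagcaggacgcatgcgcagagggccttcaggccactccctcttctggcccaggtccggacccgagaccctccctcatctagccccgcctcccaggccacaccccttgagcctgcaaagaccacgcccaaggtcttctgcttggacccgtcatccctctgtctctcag
The Acsm3 promoter had CCAAT in pairs close to the start, that of Pdk4 had 1 CCAAT on the other strand, and that of Acadm had 1 AGGTCA at the far end of the window. Over the 250 bases before the start, AGGTCA was found in 5 of the 28 members (Acadm, Acadvl, Acsm1, Cpt1a and Echs1), against 14.0% of the 32851 promoters in the table. CCAAT was found in 13 of the 28, against 33.8% of all promoters. The direct repeat DR1, which is AGGTCA and a second AGGTCA with 1 base of any kind between and a form of the element to which PPARα binds with its partner RXR, was found in 0 of the 28 members and in 0.0335% of all promoters. These matches describe letters only and are not binding sites. By position, the 4 Acsm members lie in 1 stretch on the + strand of chromosome 7, from 119519463 to 119787513, within 268.1 kb. Hadha and Hadhb, the subunit genes of the trifunctional protein, point away from each other on chromosome 5 with starts only 86 bases apart.

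To compare members with each other, levels were divided by the length of the longest coding transcript and are given in this paragraph as CPM per kilobase, as means over the 9 mice. They spanned from 839 for Acsm2, a medium-chain activating enzyme of the kidney and liver, to 2.15 for Cpt1b, the muscle type of the carnitine palmitoyltransferase. Acsm2 was in first place in activation, and its mice ranged from 531 to 1117. Etfb, the beta subunit of the electron transfer flavoprotein, followed at 718 with a range of 507 to 1149, so that on this length the 2 genes were not separated by the spread between mice. This rests on the length taken for Acsm2. With the median length of its coding transcripts, 2099 bases in place of 6738, Acsm2 was at 2694 with a range of 1706 to 3584, wholly above Etfb, which stayed at 718. Next were Hadh (367), which oxidises medium- and short-chain hydroxyacyl-CoA, Acaa2 (299), the medium-chain thiolase, Acadm (292) and Etfa (281), whose ranges over mice overlapped one another. Among activating enzymes, the medium-chain genes Acsm2 and Acsm1 (258) were above the long-chain genes, of which Acsl1 had the highest level at 46.4 and Acsl3 the lowest at 5.99. Slc22a5, the carnitine importer of the cell membrane, led the carnitine genes at 175. Cpt1a, the liver type of the palmitoyltransferase and the gate of the pathway, was at 86.0, and made up between 93.2% and 99.0% of the summed level per kilobase of Cpt1a and Cpt1b in each mouse. Among acyl-CoA dehydrogenases the order was Acadm, Acadvl (169), Acadl (144), Acads (118) and Acadsb (18.2). The ranges of Acadvl (131 to 196) and Acadl (87.8 to 176) overlapped.

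**Figure D1:**
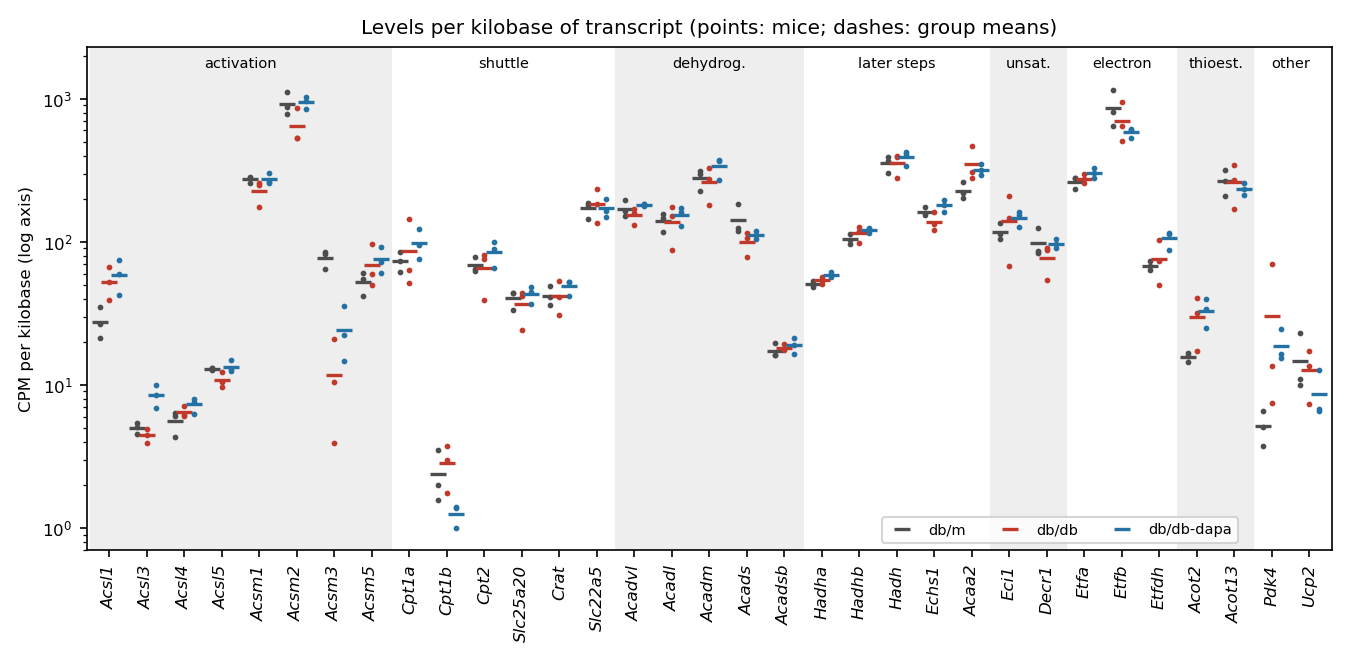
Level of each of the 33 members in CPM per kilobase of the longest coding transcript, on a log axis, grouped by step of the pathway; points are single mice and dashes are group means of 3 mice. Acsm2 and Etfb are highest and Cpt1b is lowest, and the groups lie close together for most members apart from Acsm3 and Pdk4.

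The first comparison, *db/db* against *db/m* mice, asks how the pathway differed in diabetes. Of the members, 16 were higher, beside 51.6% of all genes, and 17 were lower, and their median fold change on the log2 scale was -0.00, beside 0.02 for all genes tested. Acsm3 fell, and it was the only member to pass. With edgeR's quasi-likelihood test, an adjusted p under 0.1 over all 15583 genes and an absolute log2 fold change over 1, 1 member was called, beside 1.24% of all genes. At an adjusted p under 0.1 alone the count was also 1, beside 1.67%, and with DESeq2 it was 5, beside 6.5%. At an unadjusted p under 0.05 there were 7 members, Acsm3, Pdk4, Acsl1, Acot2, Acaa2, Acads and Acsm2, beside 13.7% of all genes. The 3 mice of one group all lay on one side of the 3 of the other for 7 members, 4 higher (Acsl1, Acaa2, Acot2 and Pdk4) and 3 lower (Acsm3, Acsl5 and Acads) in *db/db*, beside 16.4% of all genes (8.28% higher and 8.13% lower). Read against the shares of all genes, edgeR's counts by adjusted p and the count without overlap are near those that 33 genes of the table would give. The counts with DESeq2 and at an unadjusted p are above their shares, which was not tested.

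The second comparison, *db/db*-dapa against *db/m*, shares the *db/m* mice with the first. Of the members, 25 were higher, beside 48.5% of all genes, and 8 were lower in treated diabetic mice, and their median was 0.15 on the log2 scale, beside -0.02 for all genes. By edgeR's quasi-likelihood test 0 members passed an adjusted p of 0.1, beside 1.05% of all genes called and 1.31% at that p without the fold limit. The lowest adjusted p were those of Acsl1 and Acsl3, both 0.112. At an unadjusted p under 0.05 there were 8 members, beside 18.2% of all genes. limma on log2(CPM + 1) passed 0 members and DESeq2 passed 4 (Acsl1, Acsl3, Acot2 and Acsm3), where it passed 7.93% of all genes with an adjusted p. Groups did not overlap for 12 members, 9 of them higher and 3 lower, beside 28.1% of all genes (14.4% higher and 13.7% lower). Higher were Acsl1, Acsl3, Acsm5, Hadha, Hadhb, Acaa2, Etfdh, Acot2 and Pdk4, and lower were Acsm3, Cpt1b and Etfb.

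The third comparison, *db/db*-dapa against *db/db*, addresses dapagliflozin itself and shares mice with both others. In it 26 members were higher and 7 lower after treatment, and the median of their log2 fold changes was 0.16, beside -0.01 for all genes tested, of which 48.7% were higher. The differences were small, and with edgeR's quasi-likelihood test 0 of the 33 members and 0% of all genes passed an adjusted p of 0.1. At an unadjusted p under 0.05 there were 4 members, Acsl3, Acsm2 and Echs1 higher and Cpt1b lower, beside 5.19% of all genes. limma passed 0 members and DESeq2 1, Acsl3 at an adjusted p of 0.0531, beside 0.185% of all genes. Groups did not overlap for 7 members, Acsl3, Acsl5, Acadvl, Hadha, Echs1 and Decr1 higher and Cpt1b lower, beside 10.2% of all genes (4.9% higher and 5.29% lower). This balance rested largely on *db/db* replicate 1. Without that mouse the median was 0.02, with 18 members higher and 15 lower, whereas without *db/db* replicate 2 or 3 it was 0.23 or 0.27. Without *db/db* replicate 3, 3 members (Acsl3, Acsm2 and Acsm3) passed an adjusted p of 0.1, beside 2.7% of all genes. With all 9 mice, the median log2 fold change in this comparison was 0.18 for 12 proximal tubule markers and 0.58 for 8 S3 markers. It was -0.54 for loop of Henle, -0.72 for distal convoluted tubule, -0.75 for collecting duct and -0.68 for intercalated cell markers. The part of cell content in the balance of the members was not tested.

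**Figure D2:**
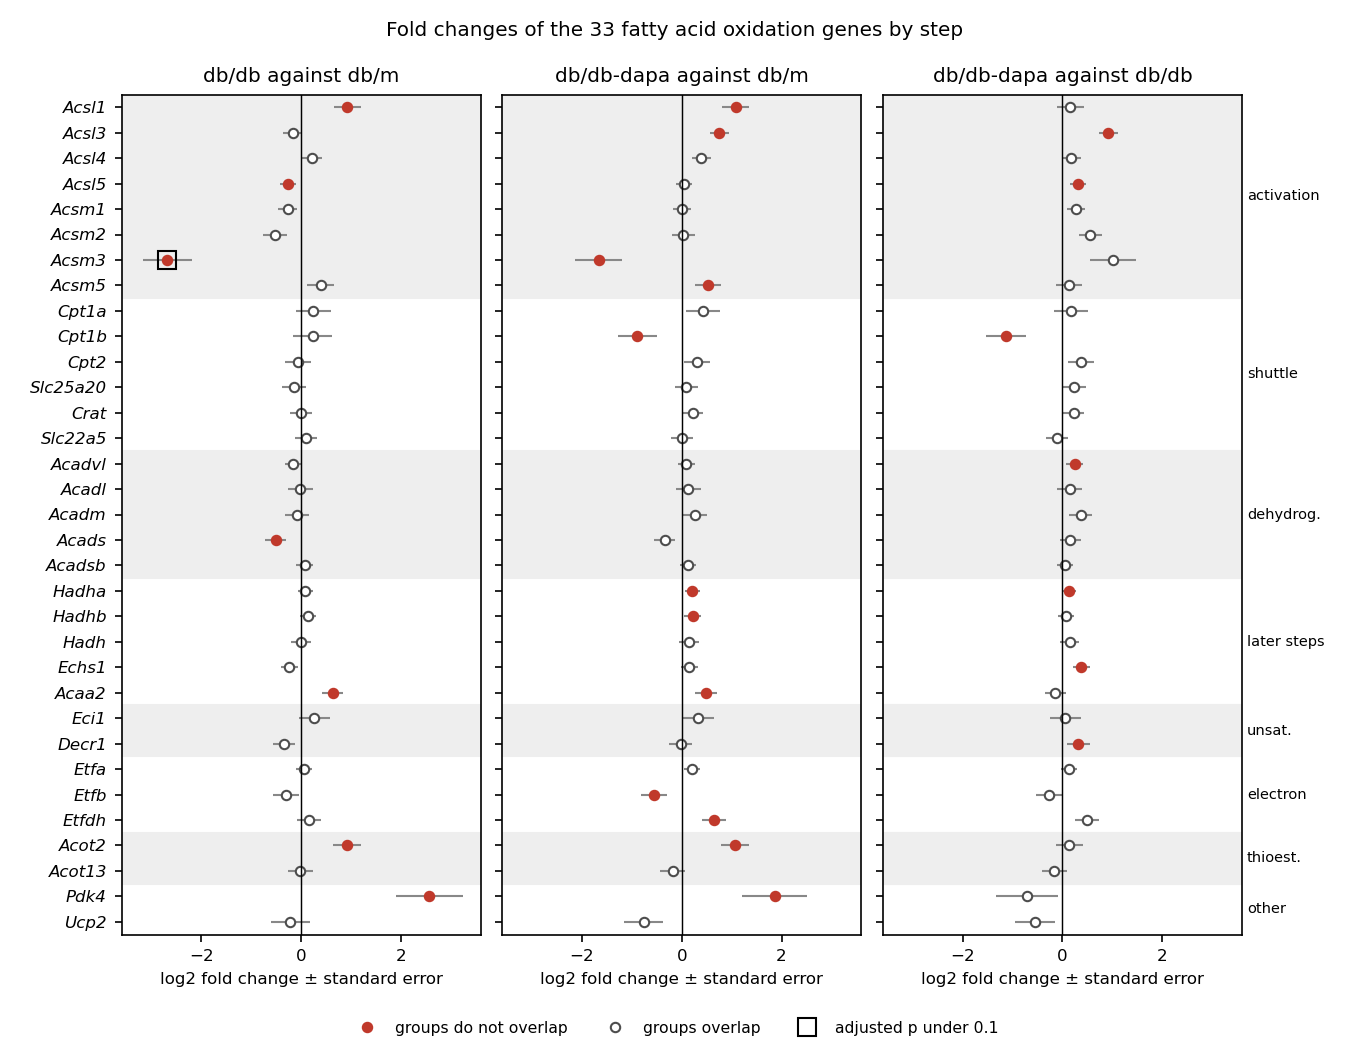
Log2 fold change with its standard error from edgeR's fit for each of the 33 members, by step, in the 3 comparisons; filled points are members whose groups of 3 mice do not overlap and a square marks an adjusted p under 0.1. Acsm3 in *db/db* against *db/m* carries the only square, Pdk4 lies farthest to the right in the comparisons with *db/m*, and most points for *db/db*-dapa against *db/db* sit a little to the right of 0.

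In *db/db* against *db/m*, the log2 fold change largest in size was that of Acsm3, an activation gene. In *db/db*-dapa against *db/m* it was that of Pdk4 (1.86), and in *db/db*-dapa against *db/db* that of Cpt1b (-1.13). Acsm3 encodes a mitochondrial medium-chain acyl-CoA synthetase and lies on chromosome 7 from 119760923 to 119787513. Its level was 213, 280.0 and 272 CPM in the *db/m* mice, 12.9, 34.8 and 69.0 in *db/db* and 48.3, 74.0 and 118 in *db/db*-dapa. The *db/m* mice stood far above all 6 diabetic mice, and the diabetic groups overlapped. The log2 fold change was -2.68 (standard error, SE, 0.49) in *db/db* against *db/m*, with an adjusted p of 0.0300 in edgeR's quasi-likelihood test. It was -1.67 (SE 0.47, adjusted p = 0.142) in *db/db*-dapa against *db/m*, and 1.01 (SE 0.47, adjusted p = 0.854) in *db/db*-dapa against *db/db*. The call in *db/db* against *db/m* held in 17 of 18 alternatives and was lost without *db/db* replicate 2, where the adjusted p was 0.115. The summed level of markers of the S3 segment, the last part of the proximal tubule, moved with Acsm3. The sum of 8 of 8 S3 markers, none of them at 0 in all mice, was 5844 to 6956 CPM in *db/m*, 1242 to 2849 in *db/db* and 2907 to 3744 in *db/db*-dapa mice. Of the 8 markers, 3 (Slc22a7, Acy3 and Cyp2e1) were lower in *db/db* than in *db/m* mice at an adjusted p under 0.1, and Slc7a13 and Cyp7b1 had negative values without passing. The other 3 did not fall, with log2 fold changes of 0.38 for Slc5a1, 0.05 for Slc22a13 and 0.01 for Slc7a12, and Slc5a1 was 0.94 in *db/db*-dapa against *db/m*, without overlap. Their part in the level of Acsm3 was not tested. Acsm3 overlaps Eri2 on the other strand, and whether the counting used strand is not stated.

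The other medium-chain synthetases had smaller fold changes than Acsm3. Acsm2 was at 5916, 7523 and 5277 CPM in *db/m*, 3593, 3580 and 5828 in *db/db* and 5735, 6529 and 6909 in *db/db*-dapa mice. Of these, *db/db* replicates 1 and 2 were the lowest, while replicate 3 lay within the *db/m* range. The log2 fold change of Acsm2 was -0.53 (SE 0.24) in *db/db* against *db/m*, 0.03 (SE 0.23) in *db/db*-dapa against *db/m* and 0.56 (SE 0.24) in *db/db*-dapa against *db/db*. Acsm1 had values of -0.27, 0.00 and 0.27 in the same order, and Acsm5 0.39, 0.53 and 0.13. Within the summed level per kilobase of the 4 Acsm members, the share of Acsm3 was 5.87% ± 1.07 (SD, n = 3) in *db/m*, 1.15% ± 0.59 in *db/db* mice and 1.80% ± 0.62 in *db/db*-dapa mice. The share of Acsm5 was 3.93% ± 0.35, 7.10% ± 0.62 and 5.66% ± 0.64, and its 3 groups did not overlap in this share. In CPM, the level of Acsm5 in *db/db* mice (148 to 287) overlapped that in *db/m* (125 to 179) and in *db/db*-dapa mice (181 to 276). Acsm2 made up between 62.6% and 73.0% of the sum in every mouse. With median transcript lengths these shares changed, to between 82.6% and 88.3% for Acsm2, and for Acsm3 to 2.79% ± 0.55, 0.55% ± 0.28 and 0.83% ± 0.29 in the 3 groups in the same order. Those of Acsm5 became 2.51% ± 0.22, 4.60% ± 0.41 and 3.55% ± 0.42, again without overlap.

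Among long-chain synthetases, Acsl1, the main form in tissues that burn fatty acids, was at 83.3, 137 and 104 CPM in *db/m*, 152, 203 and 259.9 in *db/db* and 166, 231 and 291 in *db/db*-dapa mice. Each diabetic mouse, treated or not, was above each *db/m* mouse. Relative to *db/m*, Acsl1 was higher by 0.93 (SE 0.27) in untreated and 1.09 (SE 0.27) in treated diabetic mice on the log2 scale (edgeR's adjusted p = 0.167 and 0.112), and the diabetic groups differed by 0.16. Acsl3, found mainly on the endoplasmic reticulum and lipid droplets, had a different order. Its level was 20.2, 21.5 and 18.0 CPM in *db/m*, 15.6, 17.6 and 19.5 in *db/db* and 27.4, 39.4 and 33.7 in *db/db*-dapa mice. The treated mice were above all other 6, with log2 fold changes of 0.92 (SE 0.19, unadjusted p = 0.000501, adjusted p = 0.854) against *db/db* and 0.75 (SE 0.19, adjusted p = 0.112) against *db/m* by edgeR's quasi-likelihood test. The adjusted p for Acsl3 between the diabetic groups is the value shared by the top-ranked genes of that comparison and was the lowest there. Utp14b lies within Acsl3 on the same strand, so that reads of the 2 genes may be divided. Acsl4, which prefers arachidonate, had fold changes of 0.22, 0.39 and 0.17 on the log2 scale in the 3 comparisons in the order above, and Acsl5 of -0.26, 0.05 and 0.31. Acsl1 made up 53.5% ± 5.36 (SD, n = 3) of the summed level per kilobase of the 4 Acsl members in *db/m*, 70.2% ± 4.20 in *db/db* mice and 66.1% ± 5.92 in *db/db*-dapa mice.

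**Figure D3:**
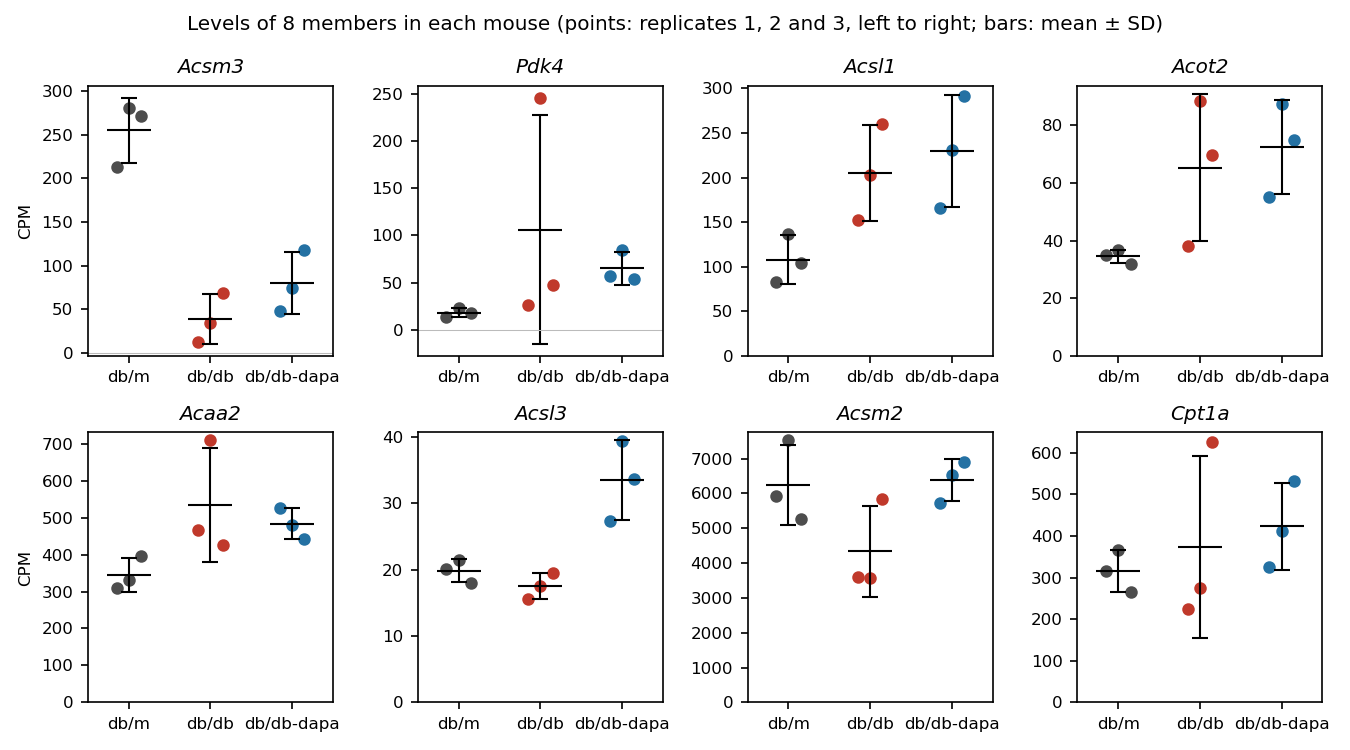
Level in CPM of 8 members in each mouse; points are mice, horizontal bars the mean and vertical bars the SD of 3 mice, and the SD bar of Pdk4 in *db/db* reaches below 0 because 1 mouse stands far above the others. Acsm3 is high only in *db/m* mice, Acsl1 is higher in all 6 diabetic mice, and Acsl3 is higher in the 3 *db/db*-dapa mice.

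None of the 6 carnitine genes passed an adjusted p of 0.1 by edgeR's quasi-likelihood test, and only Cpt1b reached an unadjusted p under 0.05. Cpt1a, which forms acylcarnitine at the outer membrane, was at 316, 366 and 266 CPM in *db/m*, 224, 274 and 625 in *db/db* and 325, 412 and 532 in *db/db*-dapa mice. The *db/db* mice held both the lowest and the highest value, and the log2 fold changes of 0.25, 0.42 and 0.17 had standard errors of 0.34. Cpt1b was at 5.83, 4.54 and 10.2 CPM in *db/m*, 10.9, 8.60 and 5.05 in *db/db* and 3.97, 2.89 and 4.07 in *db/db*-dapa mice. The treated mice were below the other 6, with a log2 fold change of -1.13 (SE 0.40, adjusted p = 0.854) against *db/db* and -0.89 (SE 0.39, adjusted p = 0.265) against *db/m*. The summed level of the 5 collecting duct markers was 233 to 745 CPM in *db/m*, 242 to 484 in *db/db* and 143 to 258 in *db/db*-dapa mice, and its part in the level of Cpt1b was not tested. Cpt1b also shares its strand with the overlapping Gm44502. Slc22a5 was at 574, 556 and 445 CPM in *db/m*, 415, 559 and 714 in *db/db* and 459.9, 499.7 and 611 in *db/db*-dapa mice. Its groups overlapped throughout, with log2 fold changes between -0.10 and 0.10. Cpt2, which returns the acyl group to coenzyme A, Slc25a20, the carnitine-acylcarnitine exchanger, and Crat, the acetyltransferase, had log2 fold changes of -0.07, -0.14 and -0.00 in *db/db* against *db/m* and of 0.38, 0.23 and 0.23 in the treated against the untreated diabetic mice.

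The 5 acyl-CoA dehydrogenases, which open each turn of the spiral, had median log2 fold changes of -0.09, 0.12 and 0.16 in the 3 comparisons, taken in the order above. All 5 were higher in treated than in untreated diabetic mice, with values from 0.05 (Acadsb, for branched short chains) to 0.36 (Acadm), and none passed the test. Acadm was at 638, 613 and 460.3 CPM in *db/m*, 371, 561 and 675 in *db/db* and 555, 755 and 758 in *db/db*-dapa mice. Its lowest value was again in *db/db* replicate 1, and its groups overlapped. The Acadm promoter printed above thus belongs to a gene whose groups overlapped, and the Acsm3 promoter to the gene with the largest fall. Acads, for short chains, was lower in all *db/db* mice (148, 217 and 198 CPM) than in *db/m* mice (223, 232 and 345), a difference of -0.51 on the log2 scale (SE 0.21, adjusted p = 0.320 in edgeR's quasi-likelihood test). The groups of Acads were only barely apart, at 217 and 223 CPM, and its log2 fold change ranged from -0.62 to -0.29 over the 18 alternatives. Acadvl, for very long chains, lay between 386 and 399 CPM in *db/db*-dapa and between 283 and 369 in *db/db* mice, which is 0.24 on the log2 scale (SE 0.17). Acadl, for long chains, had log2 fold changes of -0.01, 0.13 and 0.15.

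Of the 5 genes of the later steps of the spiral, 4 varied less than the median member and Acaa2 more. Over the 9 mice, the coefficient of variation was 7.80% for Hadha, the lowest of all 33, and 26.1% for Acaa2, beside a median of 21.9%. Hadha and Hadhb, whose products form 1 complex for long chains, had log2 fold changes of 0.08 and 0.14 in *db/db* against *db/m* and both 0.22 in *db/db*-dapa against *db/m*. Without overlap between the groups, Hadha was 202, 214 and 195 CPM in *db/m* and 228, 247 and 234 in *db/db*-dapa mice, yet the adjusted p was 0.427 by edgeR's quasi-likelihood test. Hadh was at 695, 659.9 and 545 CPM in *db/m*, 498, 707 and 697 in *db/db* and 602, 760.4 and 740.1 in *db/db*-dapa mice, with overlapping groups and log2 fold changes of 0.00, 0.15 and 0.14. Echs1, the short-chain hydratase, was 0.38 higher on the log2 scale in treated than in untreated diabetic mice (SE 0.17, unadjusted p = 0.0454, adjusted p = 0.854). Acaa2, named after its values were seen, was at 308, 331 and 396 CPM in *db/m*, 467, 709.7 and 425 in *db/db* and 526, 479.7 and 443 in *db/db*-dapa mice. All 6 diabetic mice were above the *db/m* mice, with log2 fold changes of 0.63 (SE 0.21, adjusted p = 0.229) and 0.49 (SE 0.21, adjusted p = 0.264).

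Eci1 and Decr1 prepare the double bonds of unsaturated fatty acids for the spiral. Eci1 was at 128, 118 and 154 CPM in *db/m*, 77.5, 236 and 167 in *db/db* and 145, 183 and 174 in *db/db*-dapa mice. Its *db/db* mice spanned the whole range of the 9, and the log2 fold changes of 0.27, 0.33 and 0.06 were near their standard errors of 0.31 or smaller. Decr1 was 0.32 higher on the log2 scale in the treated than in the untreated diabetic mice, without overlap, and -0.34 and -0.02 in the comparisons with *db/m*.

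The electron transfer genes had fold changes of both signs. Etfb was at 719, 575 and 1026 CPM in *db/m*, 577, 849 and 453 in *db/db* and 544, 549.8 and 475 in *db/db*-dapa mice, and its log2 fold change in *db/db*-dapa against *db/m* was -0.56 (SE 0.26, adjusted p = 0.280). Etfdh, the membrane enzyme that passes the electrons to ubiquinone, was at 160.5, 173 and 151 CPM in *db/m*, 118, 176 and 245 in *db/db* and 209.7, 272 and 275 in *db/db*-dapa mice. All treated mice were above the *db/m* mice, with a log2 fold change of 0.64 (SE 0.24, adjusted p = 0.223 in edgeR's quasi-likelihood test), while *db/db* mice lay on both sides. Etfa, the alpha subunit and partner of Etfb, had log2 fold changes of 0.07, 0.20 and 0.14. Of the summed level per kilobase of Etfa, Etfb and Etfdh, Etfdh made up 5.86% ± 1.47 (SD, n = 3) in *db/m*, 7.48% ± 3.62 in *db/db* mice and 10.7% ± 1.48 in *db/db*-dapa mice.

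Thioesterases release free fatty acid from coenzyme A. Acot2, the mitochondrial long-chain form on chromosome 12, was named after its values were seen. It was at 35.0, 36.6 and 32.0 CPM in *db/m*, 38.1, 88.2 and 69.6 in *db/db* and 54.9, 87.3 and 74.9 in *db/db*-dapa mice. Every diabetic mouse was above the *db/m* mice, although *db/db* replicate 1 only barely, and against *db/m* the untreated and treated diabetic groups were higher by 0.93 (SE 0.28, adjusted p = 0.176) and 1.07 (SE 0.28, adjusted p = 0.119) on the log2 scale in edgeR's test. Acot2 and its neighbour Acot1 are nearly identical in sequence, so reads may have been divided between them and the values are uncertain. Acot13 was at 191, 151 and 231 CPM in *db/m*, 195, 249 and 122 in *db/db* and 185, 153 and 168 in *db/db*-dapa mice, without separation of the groups.

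Pdk4 encodes the kinase that shuts off pyruvate dehydrogenase when fatty acids are burned, and is not itself an enzyme of the spiral. It lies on chromosome 6 from 5483351 to 5496309. Its level was 13.1, 23.0 and 17.8 CPM in *db/m*, 26.2, 246 and 47.1 in *db/db* and 57.1, 85.1 and 53.5 in *db/db*-dapa mice. All 6 diabetic mice were above the *db/m* mice, but *db/db* replicate 2 stood far above the rest. The log2 fold change was 2.57 (SE 0.67, adjusted p = 0.114) in *db/db* and 1.86 (SE 0.65, adjusted p = 0.208) in *db/db*-dapa against *db/m*, by edgeR's quasi-likelihood test. The value in *db/db* against *db/m* fell to 1.05 (SE 0.32, adjusted p = 0.191) without *db/db* replicate 2, and it was 3.02 with an adjusted p of 0.0442 without replicate 1 and 2.93 with an adjusted p of 0.0472 without replicate 3. In *db/db*-dapa against *db/m* the adjusted p was 0.0376 without *db/db* replicate 2 and 0.0852 without replicate 3, at values of 1.86 and 1.87. Between treated and untreated diabetic mice it was -0.71 (SE 0.62), and it turned to 0.81 without *db/db* replicate 2. That mouse also had the highest sum of 4 erythroid markers, 941 CPM against 19.5 to 277 in the other 8, and the part of this in the level of Pdk4 was not tested. Ucp2, an uncoupling protein family member, was at 43.6, 40.1 and 92.4 CPM in *db/m*, 53.7, 69.0 and 29.2 in *db/db* and 50.5, 27.0 and 26.0 in *db/db*-dapa mice, with a log2 fold change of -0.76 (SE 0.39, adjusted p = 0.318) in *db/db*-dapa against *db/m*. *db/m* replicate 3 had the highest level of Ucp2 as well as of Etfb and the highest sum of collecting duct markers, 745 CPM. It also had the highest sums of loop of Henle markers, 1524 CPM, and of distal convoluted tubule markers, 891 CPM. The part of these markers in the levels of Ucp2 and Etfb was not tested.

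By chain length, the 13 members for long chains had medians of 0.08, 0.22 and 0.17 on the log2 scale in the 3 comparisons, taken in the same order. The 6 for medium chains had -0.18, 0.15 and 0.32, and the 5 for short chains -0.00, 0.15 and 0.16. The 9 members that were not assigned to a chain length, among them Pdk4, Ucp2 and Slc22a5, had 0.07, -0.00 and -0.10. Between the diabetic groups, 12 of the 13 long-chain, 5 of the 6 medium-chain and 5 of the 5 short-chain members were higher. The classes were not tested against each other. Members of 1 class could differ widely, and those for medium chains reached from -2.68 to 0.63 in *db/db* against *db/m*.

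Single mice within a group differed over many members at once. The median member of *db/db* replicate 1 lay 0.40 below the mean of the 9 mice on the log2(CPM + 1) scale, and that mouse had the lowest value of all 9 for 17 members. The other *db/db* mice were at 0.00 and 0.08, the *db/m* mice between -0.10 and -0.00, and the *db/db*-dapa mice at -0.02, 0.18 and 0.24. The highest value of the 9 was in *db/db*-dapa replicate 3 for 9 members. By group mean, *db/db*-dapa was highest for 23 members, *db/m* for 6 and *db/db* for 4. The mouse with the lowest and the mouse with the highest median also had the smallest and the largest of the 9 libraries, and the part of library size in the pattern was not tested.

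**Figure D4:**
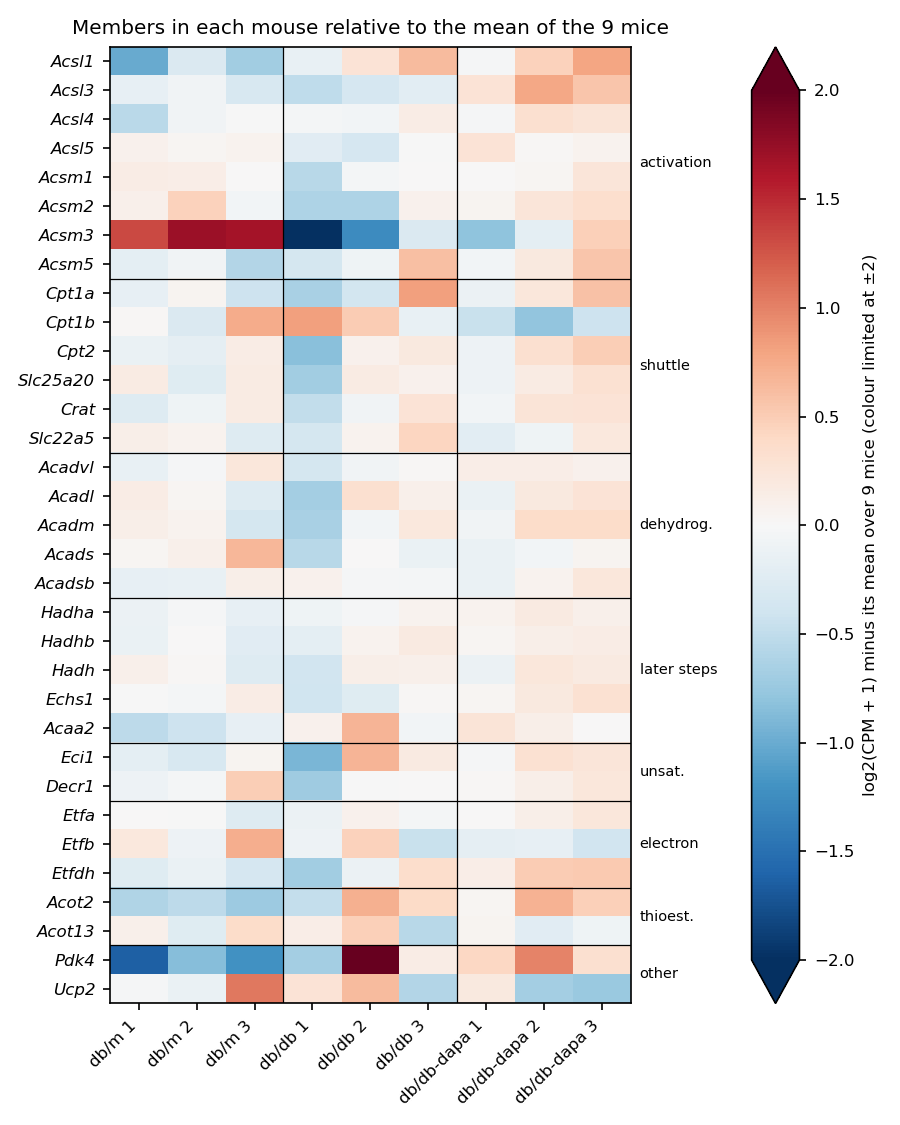
Deviation of log2(CPM + 1) of each member from its mean over the 9 mice, with members in rows by step and mice in columns by group; red is above and blue below the mean, and colours stop at 2. The column of *db/db* replicate 1 is blue for most members, and the rows of Acsm3 and Pdk4 hold the strongest colours.

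Further genes around the pathway were compared in the same fit. Of 29 more enzymes, not all of them mitochondrial, 27 were tested. In each comparison with *db/m*, 1 rose and 1 fell at an adjusted p under 0.1 by edgeR. Beside this, 1.67% of all genes passed in the first and 1.31% in the second. In *db/db* against *db/m*, 8 of the 27 were higher and 19 lower, where 51.6% of all genes were higher. Groups did not overlap for 1 higher and 6 lower, beside 8.28% and 8.13% of all genes. At an unadjusted p under 0.05 by edgeR there were 1 higher and 5 lower, beside 13.7% of all genes. DESeq2 passed 1 higher (Acsf2) and 4 lower (Acat1, Acot9, Echdc2 and Ivd) there, beside 6.5% of all genes. In *db/db*-dapa against *db/m*, 11 were higher and 16 lower, where 48.5% of all genes were higher. DESeq2 passed 3 higher (Acad11, Acot1 and Acsf2) and 1 lower (Acot9) there, beside 7.93% of all genes. Acsf2, a synthetase for medium chains, rose by 1.58 (SE 0.32, adjusted p = 0.0444) in *db/db* and 1.70 (SE 0.31, adjusted p = 0.0503) in *db/db*-dapa mice on the log2 scale. Acot9, a mitochondrial thioesterase, fell by 1.13 (SE 0.16, adjusted p = 0.0102) and 1.04 (SE 0.16, adjusted p = 0.0171). Of 14 regulators, 0 passed by edgeR in any comparison, and limma passed 0 as well. At an unadjusted p under 0.05 by edgeR there were 1, 3 and 0, beside 13.7%, 18.2% and 5.19% of all genes. DESeq2 passed Ppargc1a, a coactivator of mitochondrial genes, in *db/db* against *db/m*, where edgeR gave 0.70 (SE 0.20, adjusted p = 0.152). Ppara itself was at 0.46 (SE 0.25) and 0.33 (SE 0.25) on the log2 scale against *db/m* and -0.13 between the diabetic groups.

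Of 14 PPARα target genes outside the spiral, 13 were tested. In *db/db* against *db/m*, 9 were higher and 4 lower, where 51.6% of all genes were higher. At an unadjusted p under 0.05 by edgeR there were 5, beside 13.7%, and groups did not overlap for 4, beside 16.4%. In *db/db*-dapa against *db/m*, 9 were higher and 4 lower, where 48.5% of all genes were higher. There were 6 at that p, beside 18.2%, and 7 without overlap, beside 28.1%. At an adjusted p under 0.1 by edgeR, 2 passed in each, beside 1.67% and 1.31%. Cyp4a14, a microsomal fatty acid hydroxylase, rose by 3.39 on the log2 scale (SE 0.77, adjusted p = 0.0924) in *db/db*-dapa against *db/m* mice and was 3.02 with an adjusted p of 0.108 in *db/db* mice. DESeq2 passed Cyp4a14 in both comparisons and limma in neither. Cd36, a fatty acid uptake protein, was at 319, 420.5 and 261 CPM in *db/m* and 23.8, 26.6 and 88.2 in *db/db* mice and fell by 2.83 (SE 0.48, adjusted p = 0.0234). It was 119, 61.8 and 135 CPM in *db/db*-dapa mice, -1.66 against *db/m* with an adjusted p of 0.139. Between treated and untreated diabetic mice, 0 of the 27 enzymes, 14 regulators and 13 targets passed by edgeR, limma or DESeq2. Of these genes 2, both targets, had an unadjusted p under 0.05 by edgeR, beside 5.19% of all genes.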

How the data were processed

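RNA from FACS-sorted tdTomato+ cells of 9 mice was sequenced on an Illumina HiSeq after stranded poly(A) library preparation. The authors mapped reads to mm10 with TopHat2 2.0.13, Bowtie2 2.2.3 and SAMtools 0.1.19, and used Cufflinks 2.2.1. The table deposited by the authors is named as FPKM, but it holds estimated counts: 90.9% of its values are whole numbers and the sums per mouse differ (2733349 to 9033123). How these were counted, and whether strand was used, is not given in the sources used here. The table had 0 rows without a gene name and 0 unused sample columns.

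Estimated counts were rounded to whole numbers. Testing was limited to genes that reached 0.3 CPM in 2 or more of the 9 mice and used edgeR 4.0.16 (quasi-likelihood test, TMM scaling, all 9 mice in 1 fit, Benjamini-Hochberg adjustment over all 15583 genes) in R 4.3.3, after tests on simulated data. Calls required an adjusted p below 0.1 together with a log2 fold change above 1 in size. Standard errors were derived from the F value. Two-sided p-values test the difference between groups against the spread between separate mice. Groups came from the labels. Gene positions and transcript lengths are GENCODE's for GRCm38, and promoters RefSeq's. Values per mouse were given for members with an adjusted p under 0.1, the 2 highest and 2 lowest fold changes of each comparison and the highest level per kilobase of each step, and other members by fold change or range. Cpt1a, Acads, Hadha, Etfdh and Ucp2, and Acot2 and Acaa2, were described per mouse after their values were seen. The members and lists were chosen with earlier results of these data known. Alternatives were other scalings and filters, DESeq2 1.42.0, limma 3.58.1 on log2(CPM + 1), fits of 2 groups, a replicate block, leaving out each mouse, and the median transcript length (chosen after seeing the data). 1 of the PPARα targets entered the counts, but its values are not reported here. Samples of other assays were not analysed here.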

Additional observations from a re-analysis of the deposited data

How the results depend on the processing

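Depth and 3 mice per group limit these values. Fold changes under the other settings were followed for 14 members, those named by rule together with Acot2 and Acaa2. Of these, 341 of 378 kept direction and side of the threshold, 25 newly passed it and 12 reversed. In *db/db* against *db/m*, 2 members were called with the replicate block, with library totals, with no filter and with DESeq2. Of all genes, 1.19%, 1.5%, 1.3% and 2.96% were called in this order. At an adjusted p under 0.1 alone there were 3 with the block, 2 with totals, 2 with no filter and 5 with DESeq2, beside 1.42%, 2.23%, 1.79% and 6.5% of all genes, and DESeq2 also passed 9 of the further genes. In *db/db*-dapa against *db/m*, where 0 were called, 2 were with the block, 1 with totals and 3 with no filter. DESeq2 called 3, and a fit of only these groups called 4. Of all genes, 1.07%, 1.09%, 1.52%, 4.04% and 4.15% were called in this order. At an adjusted p under 0.1 there were 2, 1, 3, 4 and 7 in this order, beside 1.2%, 1.44%, 2.04%, 7.93% and 9.86% of all genes, and 7 further genes passed with DESeq2 and 13 in the fit of only these groups. Between the diabetic groups, DESeq2 passed 1 member, beside 0.185% of all genes. With library totals 2 members had no overlap there, beside 10% of all genes. Library totals moved the median of all genes by 0.11 in *db/db* against *db/m*. The causes of these changes were not tested.

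Reversals were near 0. In *db/db* against *db/m*, Hadh was -0.016 with the block, -0.0049 with DESeq2 size factors in edgeR, -0.0045 with DESeq2, -0.0089 with limma and -0.00075 in the fit of only these groups. Acot13 was 0.0056 with upper-quartile scaling and 0.093 with totals, and Acadm 0.0084 with totals. Against *db/m*, in *db/db*-dapa mice, Acsm2 was -0.020 with the upper quartile, and Slc22a5 was 0.035 with totals and 0.0011 in the fit of only these groups. Between the diabetic groups, Eci1 was -0.0015 with the upper quartile. The median transcript length changed the level of Acsm2 to 2694 CPM per kilobase.

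Leaving out each mouse in turn gave 0 to 3 called members in *db/db* against *db/m*. It gave 0 to 4 in *db/db*-dapa against *db/m* and 0 to 2 in *db/db*-dapa against *db/db*. In these fits 0.545% to 1.48%, 0.0901% to 4.27% and 0% to 1.75% of all genes were called. At an adjusted p under 0.1 there were 0 to 3, 0 to 6 and 0 to 3 members and 2 to 7, 0 to 13 and 0 to 3 further genes, and 7 to 11, 12 to 24 and 4 to 18 members had no overlap. Of all genes in the same fits, 0.552% to 1.96%, 0.0901% to 10.6% and 0% to 2.7% had an adjusted p under 0.1, and 16.5% to 28.3%, 28.3% to 49.8% and 10.2% to 41.5% had no overlap. In *db/db* against *db/m*, reversals occurred for Slc22a5 (-0.11 to 0.28), Acot13 (-0.27 to 0.22), Cpt1b (-0.0088 to 0.61), Eci1 (-0.12 to 0.59), Hadh (-0.10 to 0.15) and Acadm (-0.30 to 0.12). In *db/db*-dapa against *db/m* they occurred for Slc22a5 (-0.12 to 0.086) and Acsm2 (-0.077 to 0.19). Between the diabetic groups they occurred for Slc22a5 (-0.28 to 0.12), Acot2 (-0.12 to 0.41), Acot13 (-0.39 to 0.093), Eci1 (-0.27 to 0.44), Acaa2 (-0.27 to 0.11), Hadh (-0.0042 to 0.25), Pdk4 (-1.16 to 0.81), Etfb (-0.43 to 0.022) and Acsl1 (-0.037 to 0.38).

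No label pairs the mice by replicate number. The deviations of same-numbered mice from their group means correlated between -0.32 and 0.56, over 0.1 in 3 of 9 pairs. With 3 mice per group, the deviations within a group depend on each other, so these correlations cannot decide whether the numbers pair mice. The replicate block groups mice by number only.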
